A study of Homo sapiens with 4 samples.

Results

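The genes examined here are 31 targets of p53, chosen by name from a list of p53 pathway and target genes, and each of them was found among the 60606 genes of the count table. RNA was sequenced from DaroR cells, a derivative of the LNCaP prostate cancer line that was selected for growth in darolutamide. The paper states that DaroR cells were kept in medium containing darolutamide. The cells had been transfected with a control siRNA (siControl, 2 libraries) or with siRNA against the long noncoding RNA LOC730101 (siLOC730101, 2 libraries), and all 4 libraries came from the resistant line, so that no parental LNCaP library enters the comparison. The knockdown used a pool of siRNAs, and effects of single siRNAs cannot be told apart. Of the 31 genes, 30 passed the expression filter of edgeR, as did 19349 genes in all. EDA2R, a receptor of the tumor necrosis factor family, did not pass.

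p53 is a transcription factor that is held at a low level by the ubiquitin ligase MDM2 and its partner MDM4. After DNA damage or other stress it accumulates and raises the transcription of genes that arrest the cell cycle, repair DNA, supply nucleotides, adjust metabolism or prepare the cell for apoptosis. MDM2 is itself a target, which closes a negative feedback loop. LNCaP cells are known for functional p53, and CDKN1A, GDF15 and MDM2 are commonly read as markers of its activity in these cells. The comparison asks whether this set of genes differed between siLOC730101 and siControl.

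The promoter windows of the members are shown because binding of p53 near a start site defines many of its targets. RefSeq windows of 300 bases around annotated starts on GRCh38.p14 were matched by symbol for 26 of the 31 genes, in 41 windows. The p53 decamer consensus, which reads the same on both strands, was found in 7 of the 41 windows (17.1%), and in 6.63% of all 35116 windows of the table. The full p53 element was searched as a tandem of decamers up to 13 bases apart, each matching the consensus exactly. Such a tandem was found in 1 window of a member, that of DDB2, and in 10 of all windows (0.0285%). Full elements with a mismatch in a decamer were not searched for, and lower-case bases beside a decamer may belong to such an element. Capitals mark the decamers. The positions are chr11:47214975-47215003 for DDB2 on the plus strand, chr5:58460199-58460228 for PLK2 on the minus strand, chr6:109009018-109009047 for SESN1 on the minus strand, chr10:88991299-88991328 for FAS on the plus strand, chr15:88621296-88621325 for AEN on the plus strand, chr15:63157517-63157546 for RPS27L on the minus strand, and chr17:74872986-74873015 for FDXR on the minus strand. A match describes letters in a window and is not a measurement of binding. The windows of CDKN1A, GDF15 and MDM2 held no exact decamer. Lack of a match does not show that a gene has no p53 element, since sequence outside the windows was not searched.
DDB2: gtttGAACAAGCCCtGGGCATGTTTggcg
PLK2: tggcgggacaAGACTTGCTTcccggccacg
SESN1: attgtcgtctGGACAAGTCTccacaagtca
FAS: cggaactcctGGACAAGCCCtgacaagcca
AEN: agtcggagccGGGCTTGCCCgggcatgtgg
RPS27L: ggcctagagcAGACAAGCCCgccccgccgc
FDXR: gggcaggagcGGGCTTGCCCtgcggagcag

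The libraries held from 39213498 to 53368158 counts, and the targeted RNA was checked before the members. LOC730101, listed as ENSG00000216775, was counted 2560 and 2370 times in siControl against 633 and 680 times in siLOC730101. Its level in siLOC730101 was 34.0% of siControl, with a log2 fold change of -1.56 ± 0.12 (SE, the standard error, with an edgeR adjusted p of 4.34e-06). The luminal prostate markers reported here, KLK3 among them, lay between 334 and 1916 normalized CPM (counts scaled by library size and TMM factor) in every library. Of 12 markers of leukocytes, fibroblasts, endothelium and basal epithelium, 6 had a count of 0 in all libraries, KRT5, TP63 and PTPRC among them, and the highest value of any was 14.7 CPM, for COL1A1. Counts from mitochondrial genes made up 3.09% and 3.17% of the siControl libraries and 2.64% and 2.76% of the siLOC730101 libraries.

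The p53 target genes were expressed over a wide range in DaroR cells. Levels of different genes were compared as normalized CPM per kilobase of annotated exon, averaged over the siControl libraries. GDF15, a secreted cytokine of the TGF-beta superfamily, was by far the most abundant member, with 483.9 CPM per kilobase, 64.4 times the median member. It held 36.2% to 39.9% of all counts on the members in a library. TNFRSF10B, the death receptor DR5, followed with 44.5, and CDKN1A, which encodes the cyclin-dependent kinase inhibitor p21, with 33.8. RRM2B, a p53-induced subunit of ribonucleotide reductase, had 29.9, TRIAP1, a small mitochondrial survival factor, 29.5, GADD45A, a stress sensor in growth arrest, 20.9, and MDM2 20.02. Over the libraries of both groups, the values of TRIAP1 (28.0 to 37.8) overlapped with those of both CDKN1A (31.6 to 37.8) and RRM2B (29.0 to 31.5). In the siControl libraries alone, TRIAP1 lay below CDKN1A and still overlapped with RRM2B.

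The lower end of this order held FBXW7, a substrate receptor for ubiquitination, with 0.938 CPM per kilobase, TIGAR, a regulator of glycolysis, with 0.570, the death receptor FAS with 0.209, and EDA2R with 0.022. FAS depended on the length used, since its annotated exons sum to 29313 bases while its main transcript has 2563. Per kilobase of main transcript it had 2.39 and stood at place 27 of 31, ahead of FBXW7, SPATA18, TIGAR and EDA2R. The first 3 places did not depend on this choice.

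**Figure D1:**
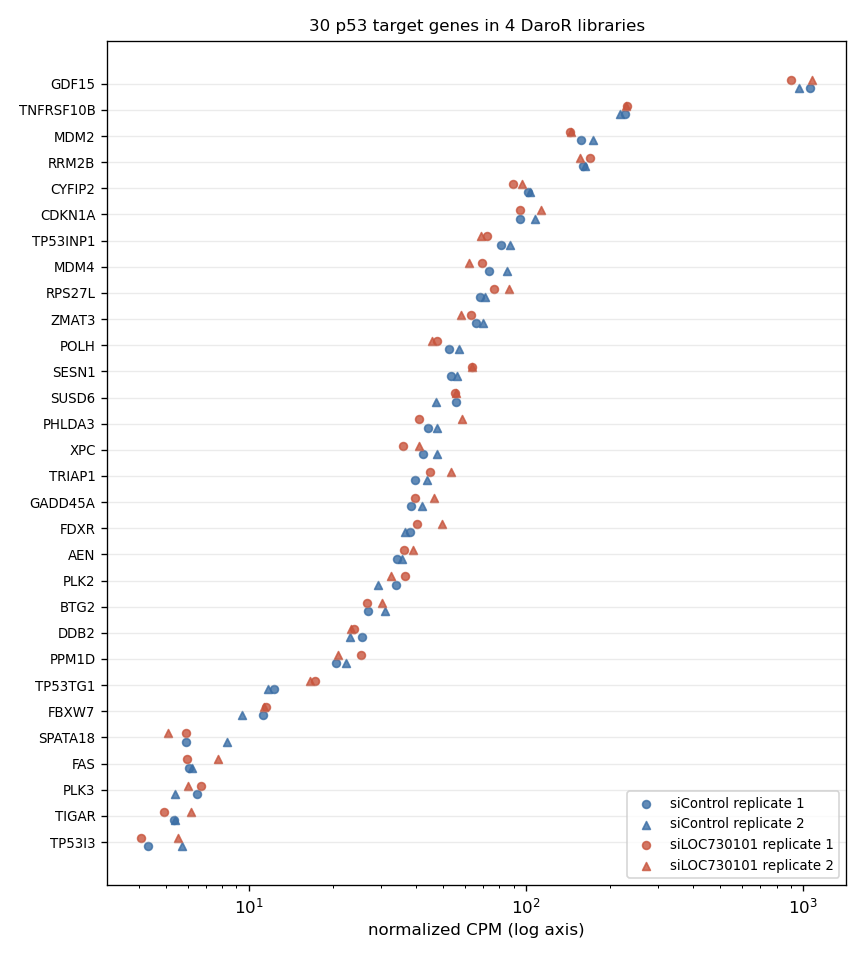
Normalized CPM (log axis, not divided by gene length) of the 30 p53 target genes that passed the expression filter, ordered by their siControl mean. Each point is a library, with siControl in blue and siLOC730101 in red, circles for replicate 1 and triangles for replicate 2. GDF15 lies highest, from 899.5 to 1078 CPM in the 4 libraries, and the points of most genes lie close together.

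Between siLOC730101 and siControl, 0 of the 30 targets passed an adjusted p of 0.05 in either direction (edgeR quasi-likelihood test, adjusted over 19349 genes). Across all genes tested, 0.212% were called higher and 0.0724% lower, so that the count of 0 among 30 genes is near this background. DESeq2 also called 0 of the 24 members to which it gave an adjusted p. At an unadjusted p under 0.05 in edgeR, 5 members were higher (16.7%) and 4 lower (13.3%), where the shares over all genes tested were 6.43% and 4.39%. Among the 11219 genes within the members' range of mean expression these shares were 9.70% and 4.57%. In bulk RNA, a change in the number of cells that express a gene and a change in RNA per cell cannot be told apart.

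The median log2 fold change of the 30 genes was 0.044, and that of all genes tested was -0.0021. Of the 30 genes, 18 had a log2 fold change above 0 and 12 below 0, and the values ran from -0.37 (SPATA18) to 0.50 (TP53TG1). In 8 members (26.7%) both siLOC730101 libraries lay above both siControl libraries, and in 7 members (23.3%) both lay below. Over all genes tested the same held for 21.3% and 20.5%. Among the 11219 genes within the members' range of mean expression it held for 26.9% and 18.9%. The median log2 fold change of those genes was 0.021. The median of the members was not stable to the choice of libraries, since it was -0.036 without siLOC730101 replicate 2, with 13 genes above 0, and 0.087 without siLOC730101 replicate 1, with 19 genes above 0.

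The size of change that the libraries leave possible was read from the 95% interval of each log2 fold change. The interval of each of the 30 genes lay within a 2-fold change in both directions, and in 26 genes it lay within a 1.5-fold change. The exceptions at 1.5-fold were FAS, SPATA18, TP53I3 and TP53TG1. For 12 genes the interval also lay within a 1.3-fold change, CDKN1A, GDF15, RRM2B and TNFRSF10B among them. The half-width of the interval ran from 0.16 to 0.54 on the log2 scale, and it was widest for TP53I3, which had 167 to 268 counts in a library.

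**Figure D2:**
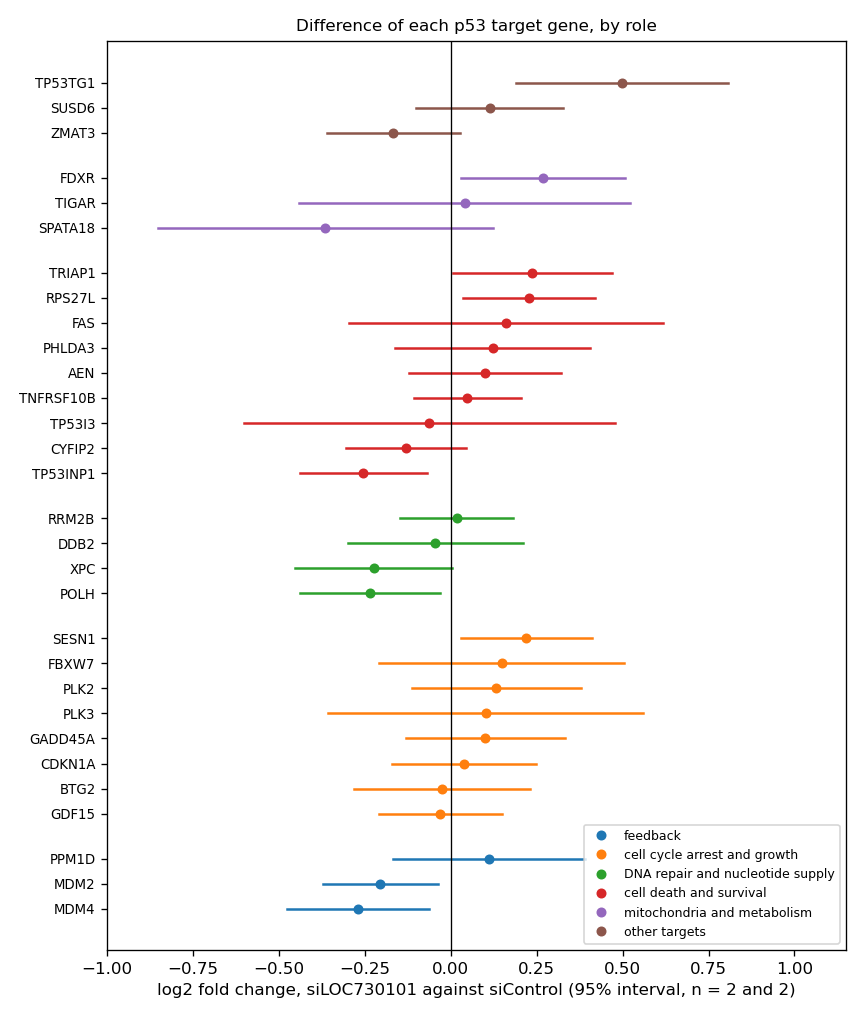
Log2 fold change of siLOC730101 against siControl for 30 p53 target genes (points) with 95% intervals from the edgeR fit (lines), grouped and coloured by role. The points lie between -0.37 and 0.50, and MDM2 and MDM4 lie below 0 while TP53TG1 is the highest.

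Among the feedback regulators, MDM2 and MDM4 were lower in both siLOC730101 libraries, without passing the adjusted threshold. MDM2 (chr12:68808177-68845544, plus strand, GRCh38) had 158 and 174 normalized CPM in siControl and 143 and 145 in siLOC730101. Its log2 fold change was -0.21 ± 0.079 (SE, edgeR, adjusted p = 0.326), and the interval allowed a level between 77.2% and 97.5% of siControl. MDM4 (chr1:204516379-204558120, plus strand), which binds p53 and blocks its activation domain, had 73.6 and 85.01 CPM in siControl and 69.2 and 62.3 in siLOC730101. The groups were separate for MDM4, with nearest libraries at 73.6 and 69.2 CPM, and its log2 fold change was -0.27 ± 0.097 (SE, edgeR, adjusted p = 0.281). PPM1D, the phosphatase WIP1 that resets p53 signaling, had a log2 fold change of 0.11 (edgeR, adjusted p = 0.838), with overlapping groups.

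The members that act on the cell cycle and on growth centred on p21. CDKN1A (chr6:36676460-36687337, plus strand) had 94.9 and 107.6 CPM in siControl and 94.6 and 113.3 in siLOC730101. The groups overlapped, and replicate 1 of each group was the lower one. The log2 fold change of CDKN1A was 0.038 ± 0.098 (SE, edgeR, adjusted p = 0.939), with an interval from 88.8% to 118.7% of siControl. GDF15 (chr19:18374731-18389176, plus strand) had 1053 and 967 CPM in siControl and 899.5 and 1078 in siLOC730101, so that the siLOC730101 libraries lay on both sides of the siControl libraries. Its log2 fold change was -0.030 ± 0.084 (SE, edgeR, adjusted p = 0.944).

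SESN1, a stress-induced inhibitor of mTORC1 signaling, was the member of this role with the highest value. It had 53.3 and 56.0 CPM in siControl and 63.8 and 63.5 in siLOC730101, with a log2 fold change of 0.22 ± 0.089 (SE, edgeR, adjusted p = 0.364). SESN1 is also among the genes shown above with a decamer in the promoter window. The other members of this role, BTG2, GADD45A, PLK2, PLK3 and FBXW7, had log2 fold changes between -0.026 and 0.15, with adjusted p-values in edgeR between 0.751 and 0.970. In all, 6 of the 8 genes of this role had a log2 fold change above 0, and 0 passed the threshold.

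Of the 4 genes of DNA repair and nucleotide supply, 3 had a log2 fold change below 0 and 0 passed. POLH, the translesion polymerase eta, had 52.7 and 57.1 CPM in siControl and 47.5 and 45.8 in siLOC730101, a log2 fold change of -0.24 ± 0.095 (SE, edgeR, adjusted p = 0.360). XPC, the damage sensor of global nucleotide excision repair, had 42.6 and 47.6 CPM in siControl and 36.0 and 41.1 in siLOC730101. Both groups were separate for POLH and for XPC, and XPC had a log2 fold change of -0.22 ± 0.11 (SE, edgeR, adjusted p = 0.474). The value of XPC is uncertain, because 24.6% of its annotated exon bases are shared with XPC-AS1 on the opposite strand, and without a strand setting reads of the pair cannot be told apart there. XPC-AS1 itself had 35 to 83 counts in a library. POLH shares 3.12% of its exon bases with GTPBP2 on the opposite strand, which had 4257 to 6232 counts, more than POLH. Likewise TP53INP1 shares 3.99% with NDUFAF6 (825 to 1278 counts) and TNFRSF10B 7.52% with RHOBTB2 (937 to 1235 counts). DDB2, which hands damaged sites to XPC and whose promoter holds the tandem element shown above, had a log2 fold change of -0.046, and RRM2B one of 0.018.

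The members linked to cell death and survival did not share a direction, with 6 of 9 genes above 0, 3 below 0 and 0 past the threshold. TP53INP1, a nuclear cofactor of p53, had 80.8 and 87.4 CPM in siControl and 72.1 and 68.9 in siLOC730101. Its log2 fold change was -0.26 ± 0.087 (SE, edgeR, adjusted p = 0.255). RPS27L, a ribosomal protein paralog, had 68.2 and 70.9 CPM in siControl and 76.4 and 86.5 in siLOC730101, a log2 fold change of 0.23 ± 0.090 (SE, edgeR, adjusted p = 0.342). Both groups were separate for these 2 genes.

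TRIAP1 had 39.6 and 43.8 CPM in siControl and 44.9 and 53.3 in siLOC730101, with a log2 fold change of 0.24 ± 0.11 (SE, edgeR, adjusted p = 0.449). PHLDA3, which competes with AKT for membrane lipids, had 44.05 and 47.7 CPM in siControl and 41.2 and 58.7 in siLOC730101. The siLOC730101 libraries of PHLDA3 held both its lowest and its highest value. The death receptors TNFRSF10B and FAS had log2 fold changes of 0.048 and 0.16, and the nuclease gene AEN had 0.10. TP53I3, a quinone oxidoreductase, had -0.063, and CYFIP2, a component of the WAVE complex, had -0.13 (edgeR, adjusted p = 0.964 and 0.616). EDA2R had 4 counts in each siControl library and 0 in each siLOC730101 library. If counts are independent, a count of 0 allows up to 3 counts, or 0.0730 and 0.0790 CPM, in these libraries, where siControl had 0.074 and 0.085 CPM. The limit would be higher if mates were counted apart. A difference in EDA2R therefore cannot be told, and no fold is given.

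FDXR, the ferredoxin reductase of mitochondria, had 38.1 and 36.6 CPM in siControl and 40.3 and 49.7 in siLOC730101. Its log2 fold change was 0.27 ± 0.11 (SE, edgeR, adjusted p = 0.389). SPATA18, which takes part in the removal of damaged mitochondria, had 5.90 and 8.29 CPM in siControl and 5.91 and 5.08 in siLOC730101, so that its groups overlap. It had the lowest log2 fold change of all members, -0.37, with a standard error of 0.23 and an adjusted p of 0.612 in edgeR. TIGAR had a log2 fold change of 0.040.

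TP53TG1 (chr7:87322943-87345560, minus strand), a long noncoding RNA, had the highest value. Raw counts of 665 and 548 (siControl) and of 712 and 630 (siLOC730101) correspond to 12.3 and 11.7 against 17.3 and 16.6 normalized CPM. The groups were separate, and the level in siLOC730101 was 141.3% of siControl, with an interval from 114.1% to 174.9%. The log2 fold change was 0.50 ± 0.14 (SE, edgeR, adjusted p = 0.170). Leaving out any 1 of the libraries gave values from 0.47 to 0.54. ZMAT3, a zinc finger protein that binds RNA, had a log2 fold change of -0.17 and SUSD6, a membrane protein, one of 0.11 (edgeR, adjusted p = 0.543 and 0.759).

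The calls depended on siLOC730101 replicate 1. Without that library, 4 members were called higher (FDXR, RPS27L, TRIAP1 and PHLDA3) and 1 lower (MDM4), while the shares called over all genes tested rose to 4.30% and 1.27%. In this fit siLOC730101 is a lone library that is assumed to vary like the siControl libraries. PHLDA3 had a log2 fold change of 0.37 without siLOC730101 replicate 1 and -0.16 without siLOC730101 replicate 2. By the rule of the study's methods, an unadjusted p under 0.05 in DESeq2 with a base mean above 50, 8 members (26.7%) passed in either direction. These were TP53TG1, FDXR, RPS27L and SESN1, which were higher, and MDM4, TP53INP1, POLH and MDM2, which were lower. Of the 14208 genes with such a base mean, 10.3% passed this rule in either direction. For this knockdown the paper itself counted genes at an adjusted p under 0.05. It reported more genes in each direction than edgeR or DESeq2 called here at that threshold, and the reason was not tested.

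**Figure D3:**
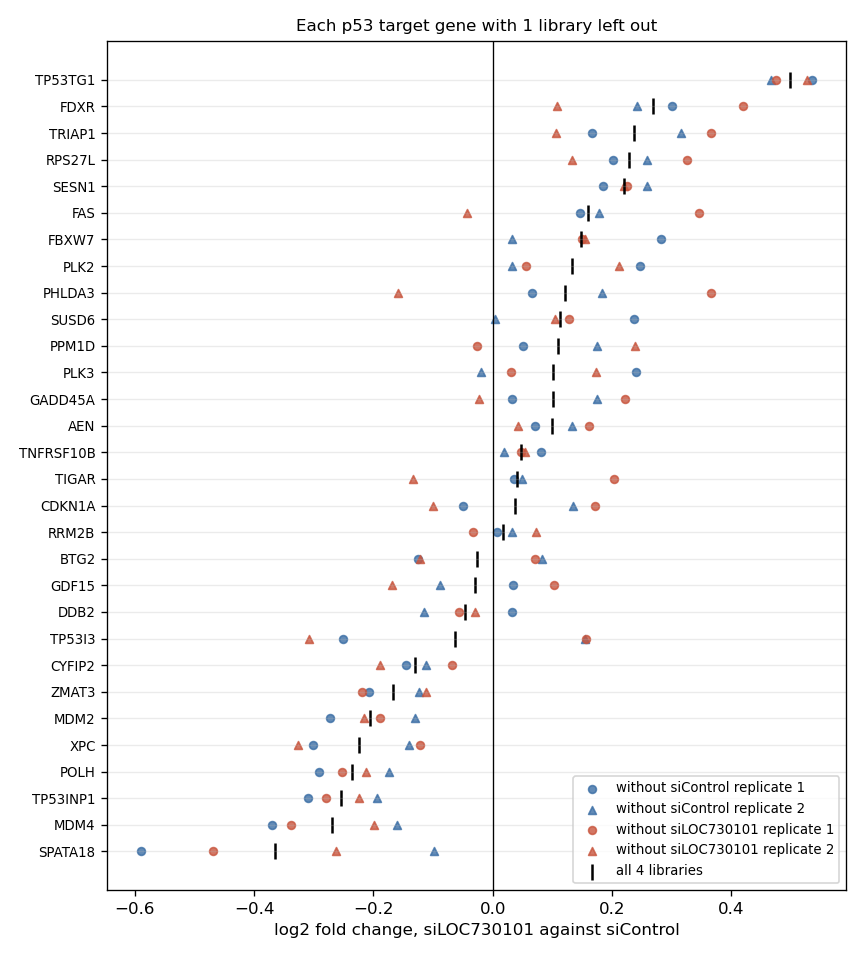
Log2 fold change of siLOC730101 against siControl for 30 p53 target genes with all 4 libraries (black bars) and with each library left out in turn (blue for siControl, red for siLOC730101). TP53TG1 stays between 0.47 and 0.54, while PHLDA3 runs from -0.16 to 0.37 depending on which siLOC730101 library is left out.

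Transcript length was set beside the fold changes. The main transcripts of the 4 members that were lower at an unadjusted p under 0.05 had 5605 to 10050 nucleotides, and those of the 5 higher ones had 1151 to 6110, so that the ranges overlap, while the median of the 30 members was 3824. Spearman's rho between transcript length and log2 fold change was -0.33 over the 30 members and -0.093 over 18941 genes with a known length. With the length of the 3′ UTR it was -0.28 over 29 members and -0.18 over 13538 genes. These correlations are across genes of the same libraries, which are not independent replicates. The part of length in the values of MDM2, MDM4, POLH and TP53INP1 was not tested.

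**Figure D4:**
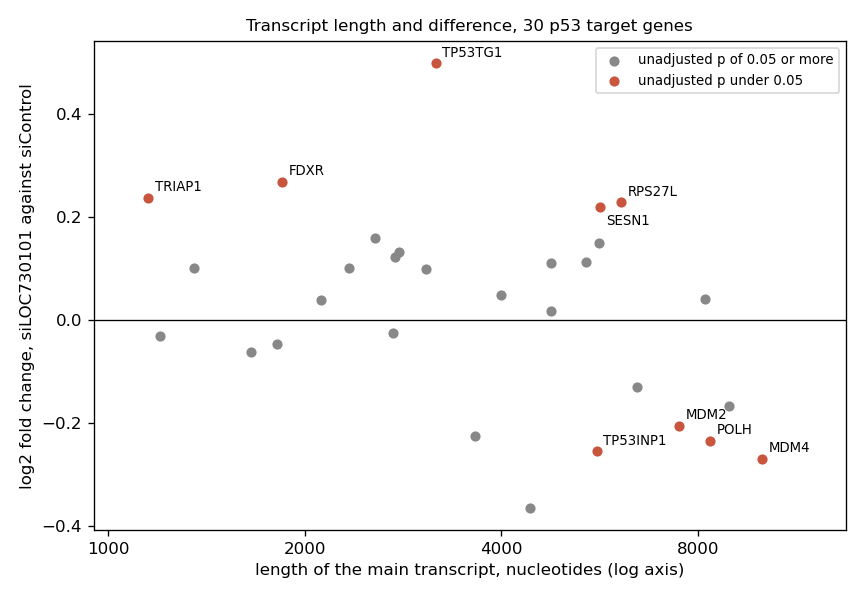
Length of the main transcript in nucleotides (log axis) and log2 fold change of siLOC730101 against siControl for 30 p53 target genes, with genes at an unadjusted p under 0.05 in red and named. MDM2, MDM4, POLH and TP53INP1 lie at 5605 nucleotides or more and below 0, while RPS27L and SESN1, at 6110 and 5664 nucleotides, lie above 0.

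The study proposes that LOC730101 acts by suppressing miR-1-3p. It reported that most targets of miR-1-3p predicted by TargetScan were lower in this knockdown, and it also measured and overexpressed the miRNA. Here the 3′ UTRs of the members were searched for sites of miR-1-3p by letters alone, which is another definition of a target. The mature miR-1-3p from RefSeq is printed with its seed in capitals, and each site is from the main transcript in a GRCh37 annotation with the 7 bases that pair with the seed in capitals. Of the 29 members tested that have a 3′ UTR, 4 (13.8%) held ACATTCC, and so did 13.3% of 13538 genes tested. The sites lie at chr4:153242968-153242991 (FBXW7, minus strand), chr5:156821135-156821158 (CYFIP2, plus strand), chr4:52962962-52962985 (SPATA18, plus strand), and, for the single 8mer among 3 sites in ZMAT3, at chr3:178737203-178737226 on the minus strand.
miR-1-3p: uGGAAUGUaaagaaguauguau
FBXW7: aaaaattaaaacACATTCCttgga
CYFIP2: gctgttctctttACATTCCttaag
SPATA18: tacacagcagtcACATTCCtggaa
ZMAT3: tttttttaaagaACATTCCaaagt

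The 4 genes with a site had log2 fold changes of 0.15 (FBXW7), -0.13 (CYFIP2), -0.37 (SPATA18) and -0.17 (ZMAT3), and 0 of them passed the threshold. Their median was -0.15, and that of the 25 members without a site was 0.048. Over all genes tested with a 3′ UTR the medians were -0.0087 with a site and 0.021 without. MDM2, MDM4, TP53INP1 and POLH, the members that were lower at an unadjusted p under 0.05, hold no ACATTCC in this annotation. The shorter seed match CATTCC was found 1 time each in MDM2 and POLH and 0 times in MDM4 and TP53INP1. It also occurs in members that were not lower, 3 times in RPS27L.

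Beyond the members, 3 further lists of the pathway were examined. Of 82 further p53 targets, 75 were tested and 0 were called, with a median log2 fold change of -0.0024. At an unadjusted p under 0.05 in edgeR, 3 of them were higher (4.0%) and 3 lower (4.0%). Over all genes tested these shares were 6.43% and 4.39%. The highest values of these targets were those of PGF (0.43 ± 1.23) and ORAI3 (0.39 ± 0.21), and the lowest were those of DUSP14 (-1.26 ± 0.73) and DRAM1 (-0.45 ± 0.21). The value of DUSP14 rested on siLOC730101 replicate 1, with raw counts of 191 and 276 in siControl against 4 and 147 in siLOC730101, and without that library its log2 fold change was -0.27. Of 40 regulators of p53, 39 were tested and 0 called, with a median of -0.015. At an unadjusted p under 0.05 in edgeR, 2 regulators were higher (5.13%) and 3 lower (7.69%). RPL11, a ribosomal protein that can bind MDM2, had the highest log2 fold change of the regulators, 0.33 ± 0.10, followed by CDKN2A with 0.23, while ATM had -0.30 and CREBBP -0.22.

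The last list holds 38 cell cycle genes that are known to be repressed through p21 and the DREAM complex when p53 is active. All 38 were tested and 0 called, with a median log2 fold change of -0.17. Of these genes, 33 (86.8%) were below 0, where 50.4% of all genes tested were. At an unadjusted p under 0.05, 12 (31.6%) were lower, where the share over all genes tested was 4.39%. In 25 (65.8%) both siLOC730101 libraries lay below both siControl libraries, where 20.5% of all genes tested did. PRC1 (-0.68 ± 0.57) and PLK4 (-0.44 ± 0.16) were lowest, and CDC25A (0.23 ± 0.13) and CKS2 (0.15 ± 0.11) highest. The list was chosen with earlier results of these data known, and the paper had already reported lower cell cycle genes in this knockdown. These shares are therefore not an independent finding, and the part of p53, p21 or DREAM in them was not tested.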

How the data were processed

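The authors trimmed the reads, aligned them and counted them on gene names with featureCounts, and deposited raw counts of the 4 libraries without normalization. As the aligner, the methods name STAR and the processing notes BWA, and which of them made the counts is not known. The file header names gencode v41 for hg38, the methods hg19 with gencode v19, and the counts were used as deposited. No option for paired ends or strand stands in that command, and 66.0% to 70.1% of counts from 1 to 20 were even, as when mates are counted apart. Counts were filtered with filterByExpr, scaled with TMM and tested with edgeR 4.0.16 (quasi-likelihood, legacy method, not robust) in R 4.3.3, with DESeq2 1.42.0 as an alternative. Other scalings and filters, halved counts, a replicate block and leaving out each library were tried as alternatives. The test was tried on simulated counts with 200 changed genes. It recovered 130 of them (65%) at a 2-fold change and 91 (45.5%) at a 1.5-fold change. False calls were 7 and 10, so that many changes of this size were missed. Values per library are normalized CPM, and standard errors and 95% intervals were derived from the coefficient and F statistic of the fit. P-values were adjusted by Benjamini-Hochberg across the whole table of genes tested. With 2 libraries a group, an exact permutation test cannot go below a two-sided p of 0.333. The labels name replicates and do not say whether they are separate cultures, so that p-values measure the spread between these libraries. Neither pair held equal counts (chi-square per degree of freedom 10.6 and 13.0). The members and lists were chosen with earlier results of these data known. Values per library are given for the 5 highest and 5 lowest members, MDM2, CDKN1A, GDF15 and members called under any alternative. Of the further lists the 2 highest and 2 lowest genes are named. Promoters and miRNAs are from RefSeq (GRCh38.p14), transcripts from GENCODE v44 lifted to GRCh37. A marker gene that was checked is not reported here.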

Additional observations from a re-analysis of the deposited data

How the results depend on the processing

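The counts of genes called depended on the processing, and 12 of the 30 members changed direction in at least 1 alternative. The 95% interval was widest for TP53I3, with a half-width of 0.54 on the log2 scale. Over all genes, 41 were called higher and 14 lower as reported, 324 and 113 without the filter, 103 and 37 with at least 1 CPM in 2 libraries, 233 and 64 in DESeq2, 87 and 24 with the legacy method off, 113 and 35 with halved counts, and 35 lower with library size only. The rule of the study's methods called 995 higher and 473 lower, and 4 and 4 of the members. With each library left out in turn, 77 to 923 genes were called higher and 26 to 272 lower, 0 to 4 members higher and 0 to 1 lower, and in the further lists 0 to 3 targets, 0 to 4 regulators and 0 to 5 genes repressed through p21 and DREAM. The further targets had 1 call with library size only, with 1 CPM in 2 libraries, with the legacy method off and with halved counts, 2 in DESeq2 and 3 without the filter. The regulators had 1 call without the filter and in DESeq2. The genes repressed through p21 and DREAM had 1 call with library size only, with 1 CPM and with halved counts, 2 in DESeq2 and 3 without the filter. The cause of these changes was not tested.

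A replicate block called 485 genes higher and 167 lower, 1 member higher (TP53TG1, adjusted p = 0.0467 in edgeR) and 0 lower, 3 further targets, 2 regulators and 3 genes repressed through p21 and DREAM. The deviations of replicate 1 from the group means had a correlation of -0.00090 between the groups over 19349 genes and of 0.18 over the 30 members tested. The labels do not tie the numbers to a shared culture or day, so they were not taken to pair the libraries.

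Of the 30 members, 18 kept their direction under every alternative run. CDKN1A had a log2 fold change of -0.0015 with library size only, and RRM2B had -0.013 with upper-quartile factors and -0.019 with library size only. With each library left out in turn, the log2 fold change of CDKN1A ran from -0.099 to 0.17, GDF15 from -0.17 to 0.10, DDB2 from -0.12 to 0.032, BTG2 from -0.13 to 0.083, PLK3 from -0.019 to 0.24, TP53I3 from -0.31 to 0.16, PPM1D from -0.026 to 0.24, RRM2B from -0.034 to 0.073, GADD45A from -0.023 to 0.22, FAS from -0.043 to 0.35, PHLDA3 from -0.16 to 0.37, TIGAR from -0.13 to 0.20, PGF from -1.22 to 2.98 and CDKN2A from -0.0073 to 0.44. DUSP14 ran from -5.56 to -0.27, and it was called without the filter (edgeR, adjusted p = 0.0097), with the replicate block (-2.05), without siControl replicate 1 and without siLOC730101 replicate 2. RPL11 ran from 0.12 to 0.52 and was called without the filter, in DESeq2, with the block and without siLOC730101 replicate 1. ATM ran from -0.43 to -0.17 and was called with the block and without siLOC730101 replicate 1.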
